A study of Mus musculus with 12 samples.

Results

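Segment 2 of the mouse epididymis, taken after the efferent ducts had been tied off (L2), was compared with segment 3 of non-ligated mice (C3), the next piece of duct downstream. The comparison asks whether segment 2 without flow from the testis takes on the levels of a normal segment 3. It used 4 of the 12 libraries of the study, 2 of L2 and 2 of C3. Genes of a sperm and spermatid list were set apart, as were genes nearly absent from all ligated libraries, whatever their source. All mice were wild type. Per the labels' protocols a suture was tied round the efferent ducts just before the caput, each library was a pool of 2 mice, and each was made from 500 ng of total RNA by poly(A) selection and a directional kit. The study also held segment 1 (C1, L1), control segment 2 (C2) and ligated segment 3 (L3), 2 libraries each, and 1 library of each group was sequenced in each of 2 batches, 3017 and 3097. No label gives the age of the mice or the time from ligation to collection. The controls were non-ligated, and no label describes a sham operation.

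The epididymis is a coiled duct in which sperm mature, and its epithelium differs from segment to segment in the proteins it secretes. The most proximal segments depend on factors from the testis that arrive in the lumen with the fluid and sperm, a route called lumicrine signalling. In mice it acts through the receptor tyrosine kinase ROS1 and the MAP kinase ERK, and holds up a set of genes that includes secreted lipocalins, cystatins and ribonucleases. Tying the efferent ducts removes both these factors and the sperm, while androgen in the blood still reaches the tissue.

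Library depth was 30485275 to 42313728 counts, with 36352153 and 39650919 counts for L2 and 35190553 and 39282539 counts for C3 (batch 3017 first, batch 3097 second, an order kept for all values below). Levels are CPM values, counts set against library size after scaling by the trimmed mean of M-values (TMM), and are not corrected for gene length. Caput genes were high in all 4 libraries: Gpx5, a glutathione peroxidase secreted there, was at 33799 and 45515 CPM in L2 and at 53536 and 57397 CPM in C3. The 2 libraries of a group were not alike in every group. The chi-square per degree of freedom between them was 48.28 in L2, 80.1 in C3 and 115.5 in C2, against 22.62 to 44.83 in the other groups. The lipocalin Lcn9, a marker of the proximal end, was at 2565 and 262 CPM in the 2 libraries of C2. The C2 libraries took no part in the L2 or C3 levels, but they entered the estimate of the spread and the choice of segment genes. The p-values measure the spread between pools of 2 mice.

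Most genes in ligated segment 2 sat close to control segment 3, and the large differences were nearly all losses. Of 19213 genes tested, 404 (2.10%) were called in edgeR's quasi-likelihood test at a Benjamini-Hochberg adjusted p under 0.05, with 81 (0.422%) higher and 323 (1.68%) lower in L2. A difference of 2-fold or more was seen for 14 of the higher and 257 of the lower genes. For 12135 genes (63.2%) the unadjusted 95% interval of the fold change lay wholly within 2-fold of C3. The same fit called 1888 genes (9.83%) between L2 and C2, 546 higher (2.84%) and 1342 lower (6.98%) in L2, with 58.5% of genes within 2-fold. Between C2 and C3 it called 344 (1.79%), 176 higher (0.916%) and 168 lower (0.874%) in C2, with 60.4% within 2-fold. These comparisons share libraries, so their counts are given side by side and not as separate evidence.

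The count of calls was sensitive to single libraries. It was 105 without the C3 library of batch 3017, 256 without the C3 library of batch 3097, 79 without the L2 library of batch 3017 and 98 without the L2 library of batch 3097. Without the batch term it was 236. Scaling by library totals alone gave 441 calls, of which 175 were higher and 266 lower, so the share of higher calls depends on the scaling. Of the 404 calls, 66 passed the test whichever of the 4 libraries was left out, 4 higher and 62 lower.

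Sperm transcripts were among the largest losses. The sperm and spermatid list and the genes under 0.1 CPM in all 6 ligated libraries were set apart, which left out 484 tested genes; 145 of them were called, all lower in L2 and 144 of them by 2-fold or more. Of the genes set apart, 62 were on the list and 447 met the second criterion, some of them meeting both. The second criterion takes out genes low after ligation whatever their source. It uses the ligated levels themselves, so its 126 calls are no evidence of a loss. Akap4, Cabs1 and Prm1, of the sperm list, also meet it, and their values below are description. The remaining 18729 genes held 259 calls (1.38%), 81 higher and 178 lower, and 12124 of them (64.7%) were within 2-fold of C3 by the interval. Among the remaining genes, 2610318N02Rik and Ttbk1 differed by -10.31 and -9.39 on the log2 scale. The fold change by level plot shows the calls set apart and the other calls.

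**Figure D1:**
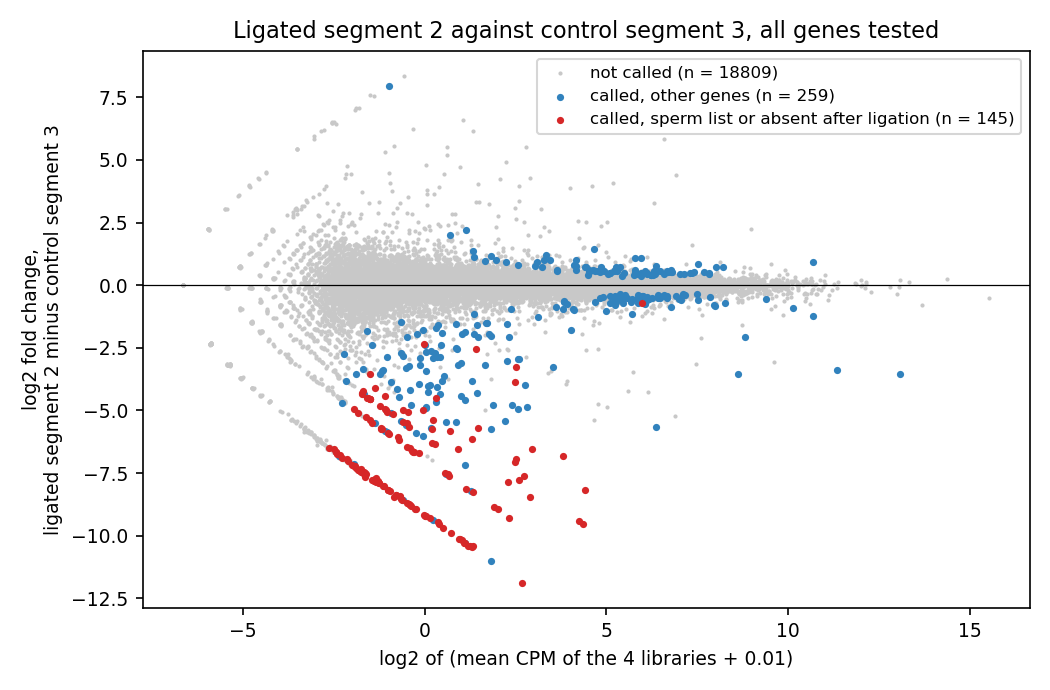
Fold change of each of the 19213 genes tested (y axis, log2 of L2 over C3) against its level (x axis, log2 of the mean CPM of the 4 libraries plus 0.01), with called genes set apart in red, other called genes in blue and genes not called in grey. The 145 red points all lie below 0, and the 259 blue points lie on both sides, with 14 of them at 2-fold or more above.

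Akap4, the main scaffold protein of the fibrous sheath of the sperm tail (chrX:7067519-7078609), was at 15.6 and 10.1 CPM in C3 and had no count in either L2 library. With a floor of 3 counts per library this is at least 170-fold lower. Odf1, an outer dense fibre protein, was at 54.8 and 27.2 CPM in C3 and at 0.0259 and 0.073 CPM in L2, a log2 difference of -9.55 ± 0.53 (SE). Smcp, a protein of the sperm mitochondrial capsule, was at 53.5 and 22.6 CPM in C3 and at 0.0259 and 0.073 CPM in L2. No library of L2 overlapped one of C3 for these 3 genes, which were named for the size of their difference, so that separation adds nothing to it. The values of C2 overlapped those of C3, with Akap4 at 16.8 and 13.2 CPM and Odf1 at 41.9 and 47.3 CPM.

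Pgk2, the phosphoglycerate kinase of spermatogenic cells, had 1 count in the 2 L2 libraries together, and C3 was higher by a ratio of 791 (95% counting interval 142 to 31290). The same count was left for Spata18, with a ratio of 629 (112 to 24886), and for Cabs1, a calcium-binding protein of spermatids, with a ratio of 590 (105 to 23339). Prm1, the protamine that packs sperm DNA, differed by -7.07 ± 0.46 on the log2 scale, Gapdhs, the glycolytic dehydrogenase of the sperm tail, by -6.93 ± 0.37, and Crisp2, a testis member of the CRISP family, by -6.53 ± 0.40. Gapdhs and Crisp2 had adjusted p of 1.6e-04 and 2.2e-04 (edgeR), and their calls held with any of the 4 libraries left out.

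Over the sperm list as a whole, 39 of 62 tested members were called lower and none higher, against 1.68% and 0.422% among all genes. The list median was a log2 difference of -5.94, or -4.23 with members at 0 counts placed at their bound. Members that also meet the second criterion, such as Akap4, are included. They passed the count filter through the control libraries, so their calls are no evidence of a loss. Over all genes tested the median was -0.002. The list is not made of sperm genes alone: 12 members were at 1 CPM or more in both L2 libraries, among them Ace, the angiotensin-converting enzyme that the epididymal epithelium also makes, at 1583 and 1023 CPM in L2 and at 1214 and 1312 CPM in C3. With Ace included, the whole list summed to 1708 and 1129 CPM in L2 and to 1815 and 1681 CPM in C3.

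Genes outside the set-apart lists included others with known roles in the testis. Dbil5, a testis acyl-CoA-binding-like protein, was at 11.7 and 6.21 CPM in C3 and at 0.207 and 0.195 CPM in L2 (log2 difference -5.41 ± 0.49, adjusted p = 7.6e-04 in edgeR). Osbp2, an oxysterol-binding protein found in spermatids, was at 18.6 and 8.5 CPM in C3 and at 0.622 and 0.292 CPM in L2. Fhl4, a LIM-domain protein of the testis, was at 16.5 and 8.76 CPM in C3 and at 0.725 and 0.827 CPM in L2. Klhl10, a ubiquitin ligase adaptor of spermatids, was at 6.93 and 4.32 CPM in C3 and at 0.829 and 0.414 CPM in L2. All L2 values of these 4 genes lay below all C3 values. They were named for the size and shared direction of their difference, so this separation adds nothing to the calls.

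Of the other large losses outside those lists, Spata20 differed by -4.32 ± 0.40 on the log2 scale, Ccdc136, needed for the acrosome, by -3.26 ± 0.23, Atp8b3, a flippase of the acrosome, by -2.96 ± 0.39, and Scarna2, a small Cajal body RNA, by -4.78 ± 0.84. The calls of Dbil5, Osbp2, Fhl4, Spata20 and Ccdc136 held whichever library was left out, while Klhl10, Atp8b3 and Scarna2 each lost theirs in 2 of the 4 cases. Chl1, a neural cell adhesion molecule, was at 8.43 and 5.47 CPM in C3, at 8.57 and 7.66 CPM in C2 and at 0.104 and 0.146 CPM in L2 (log2 difference -5.75 ± 0.45, adjusted p = 3.0e-04 in edgeR). Its C2 and C3 values overlapped. Adam3, a surface protein of sperm, was at 3.58 and 2.21 CPM in C3 and at 0.0777 and 0.0487 CPM in L2. Adam5, another ADAM of sperm, was at 3.61 and 2.84 CPM in C3 and at 0.544 and 1.12 CPM in L2. With a library left out, the call of Adam3 was lost in 1 case and that of Adam5 in 3. In a tissue sample, fewer cells of a kind and less RNA per cell cannot be told apart, and this holds for each level given here.

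**Figure D2:**
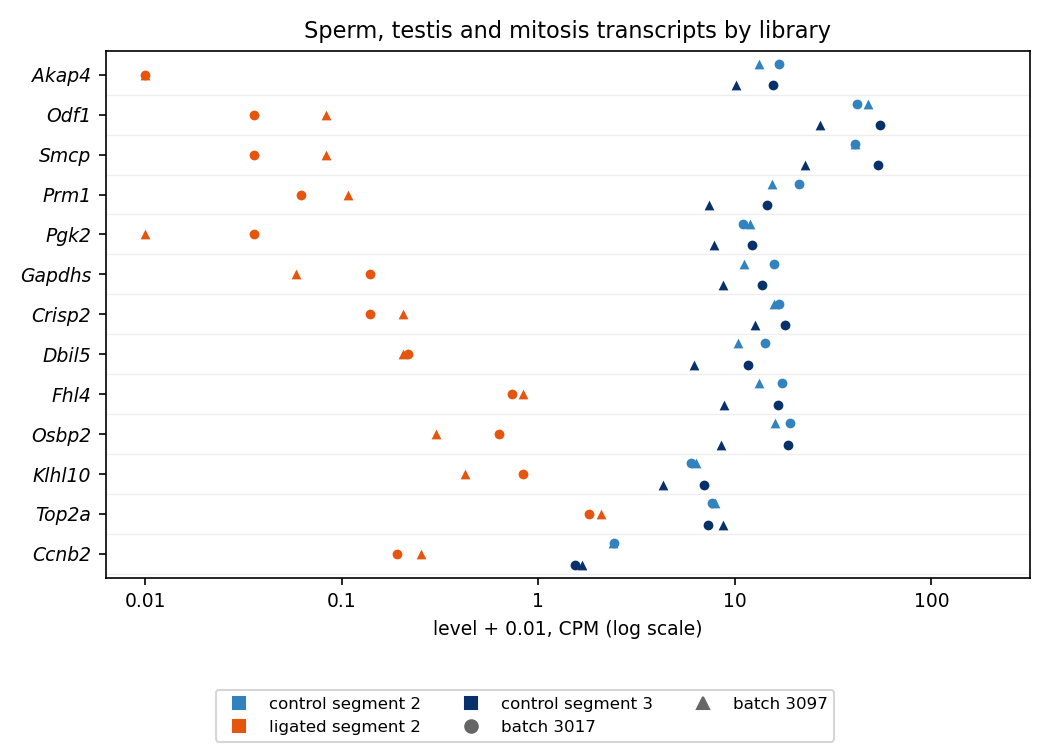
Levels of 13 sperm, testis and mitosis transcripts in each library (x axis, CPM plus 0.01 on a log scale), with groups by colour and batches by shape. The orange points of L2 lie to the left of both control segments for each gene, and those of Akap4 stand at 0 counts.

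Some cell division genes were also lower. Of 26 tested members of a proliferation list, 4 were called lower and none higher, against 1.68% called lower and 0.422% called higher among all genes, and the list median was -1.02. Top2a, the topoisomerase of dividing cells, was at 7.27 and 8.66 CPM in C3 and at 1.79 and 2.07 CPM in L2 (log2 difference -2.05 ± 0.38, adjusted p = 0.04 in edgeR). The mitotic cyclin Ccnb2 was at 1.53 and 1.66 CPM in C3 and at 0.181 and 0.243 CPM in L2. The other 2 were the cyclin Ccnb1, at 1.48 and 2.26 CPM in C3 and at 0.337 and 0.827 CPM in L2, and its kinase Cdk1, at 1.56 and 2.26 CPM in C3 and at 0.0777 and 0.608 CPM in L2. Ccnb1, Ccnb2 and Cdk1 are also expressed in germ cells, and all 4 calls were lost whichever library was left out, with adjusted p between 0.052 and 0.34 in edgeR. In control segment 1, Top2a was at 22.5 and 27.4 CPM, Ccnb2 at 6.56 and 6.88, Ccnb1 at 6.91 and 8.79 and Cdk1 at 6.93 and 8.52, all above C3. There the 61 sperm list members not at 1 CPM or more in both L2 libraries summed to 28.8 and 33.5 CPM, against 451 and 244 CPM in C3. Whether the change in sperm content accounts for the lower levels in L2 was not tested.

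The genes that tell segment 2 from segment 3 were chosen in one batch and read in the other, so that the C3 library that was compared had no part in the choice. A gene was chosen when C2 and C3 were at least 4-fold apart in one batch and the higher of them was at 5 CPM or more, with the genes set apart left out. In batch 3097, the 103 genes higher in C3 lay a median 1.22 log2 units above C2 in C3 and 1.03 above C2 in L2. L2 was within 2-fold of C3 for 75 of these 103 genes (72.8%) and within 2-fold of C2 for 50, while C3 itself was within 2-fold of C2 for 40. For the 140 genes higher in C2 the median log2 difference from C2 was -1.53 in C3 and -1.84 in L2. L2 was within 2-fold of C3 for 110 of them and of C2 for 28, while C3 was within 2-fold of C2 for 38.

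In batch 3017, L2 went past C3. The 61 genes chosen as higher in C3 lay a median 2.26 log2 units above C2 in C3 and 4.01 above C2 in L2. L2 was within 2-fold of C3 for 27 genes (44.3%), at least 2-fold above C3 for 33 and within 2-fold of C2 for 4. For the 61 genes chosen as higher in C2 the median log2 difference from C2 was -2.62 in C3 and -4.23 in L2. L2 was within 2-fold of C3 for 13 of them (21.3%), at least 2-fold below C3 for 47 and within 2-fold of C2 for 1. Among all 18729 genes outside those set apart, 96.1% were within 2-fold of C3 in batch 3017 and 98.2% in batch 3097, so a share near those values would not set the chosen genes apart.

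The ligated segment 3 libraries, which share no library with the choice, lay past C3 in the same batch as well. Their median difference from C3 over the 61 genes higher in C3 was 2.43 log2 units in batch 3017, and that of L2 from L3 was -1.12. Over the 61 genes higher in C2 the median difference of L3 from C3 was -2.51 and that of L2 from L3 was 0.60. In batch 3097 the medians of L3 against C3 were 0.04 and -0.18 for the 2 sets. Both differences, of L2 and of L3, were read against the same C3 and C2 libraries of a batch, and a property of 1 control library cannot be told apart from the batch.

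**Figure D3:**
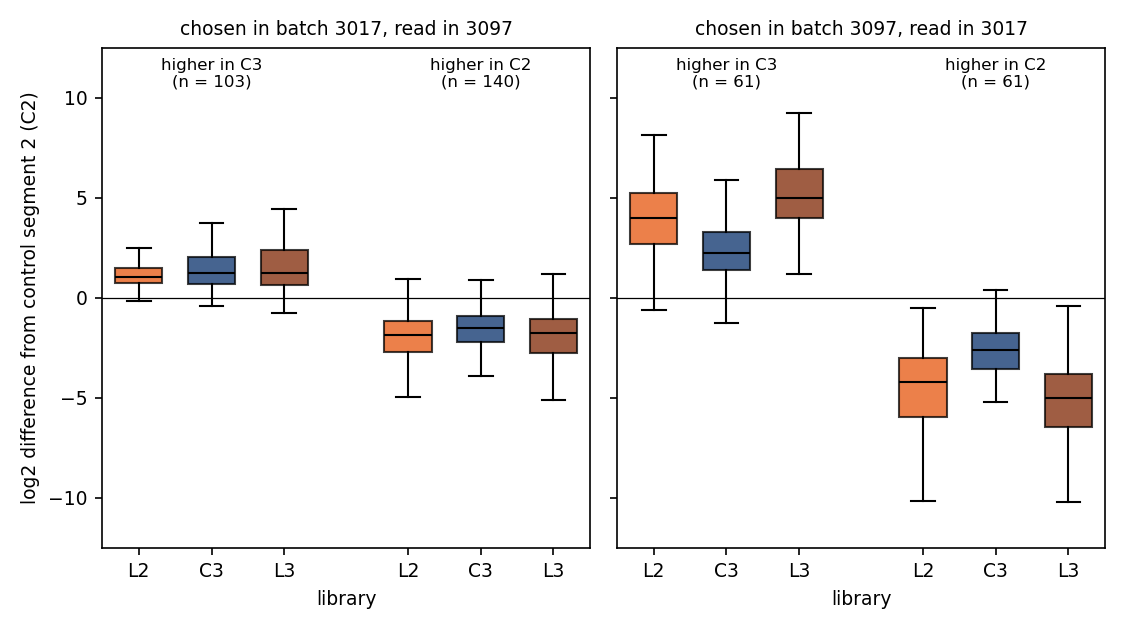
Log2 difference from control segment 2 (C2, y axis) of ligated segment 2 (L2), control segment 3 (C3) and ligated segment 3 (L3), for genes chosen in one batch and read in the other. Boxes give the quartiles over genes, lines in them the medians and whiskers the furthest gene within 1.5 box lengths; L2 lies near C3 in batch 3097 (left) and past C3 in batch 3017 (right), on both sides of 0.

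Among the genes higher in control segment 3 in both batches, the 10 with the highest C3 levels had both L2 values above both C2 values. These genes were chosen in the same C2 and C3 libraries that L2 is read against, which favours L2 values above C2. Their levels are given as description. Their log2 differences from C3 within a batch ran from -1.88 to 1.86, both ends given by Lcn5. Clu, the secreted chaperone clusterin, was at 2251 and 10049 CPM in C2, at 23000 and 22313 CPM in L2 and at 16839 and 22573 CPM in C3. Cdh16, a cadherin of kidney and duct epithelium, was at 171 and 524 CPM in C2, at 747 and 725 CPM in L2 and at 704 and 831 CPM in C3. Spink11, a Kazal-type protease inhibitor, was at 3.47 and 106 CPM in C2, at 837 and 793 CPM in L2 and at 531 and 1344 CPM in C3. The L2 libraries of Spink11 lay between the C3 libraries, while 1 of the 2 L2 values of Clu lay above them.

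C4bp, a complement inhibitor, was at 146 and 462 CPM in C2, at 1241 and 968 CPM in L2 and at 736 and 1464 CPM in C3. Slc16a10, a transporter of aromatic amino acids, was at 85.9 and 423 CPM in C2, at 544 and 673 CPM in L2 and at 681 and 895 CPM in C3. Ces5a, a secreted carboxylesterase of the epididymis, was at 96.2 and 527 CPM in C2, at 613 and 642 CPM in L2 and at 568 and 1405 CPM in C3. Both L2 values of Slc16a10 lay below both C3 values, and those of C4bp and Ces5a lay between them. Spink12, a relative of Spink11, and the beta-defensin Defb12 had L2 levels of 634 and 896 CPM and of 227 and 379 CPM, against 455 and 692 CPM and 257 and 829 CPM in C3. The transcript 9230113P08Rik was at 83.1 and 224 CPM in C2, at 383 and 600 CPM in L2 and at 639 and 1341 CPM in C3, with both L2 values below both C3 values. None of these 9 genes was called between L2 and C3, with adjusted p between 0.38 and 1 in edgeR. That does not show equal levels: the intervals of the log2 difference ran from -1.08 to 1.54 for Clu, from -1.02 to 0.93 for Cdh16 and from -3.13 to 3.12 for Spink11.

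Other genes of the caput gave similar values. Ptgds, the lipocalin-type prostaglandin D synthase, was at 665 and 1161 CPM in C2, at 1950 and 2081 CPM in L2 and at 1683 and 1828 CPM in C3. Its log2 difference from C3 was 0.20 with an interval of -0.5 to 0.9, so it was within 2-fold. Ggt1, a gamma-glutamyl transferase that acts on glutathione, was at 125 and 305 CPM in C2, at 380 and 325 CPM in L2 and at 347 and 418 CPM in C3. Lypd8, of the Ly6 family, was at 3319 and 10313 CPM in C2, at 10428 and 11360 CPM in L2 and at 10428 and 9037 CPM in C3, with an interval of -3.19 to 3.42, so it tells nothing of either segment.

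The retinoic acid-binding lipocalin Lcn5 and the ribonuclease-like Rnase9 differed between the batches. Lcn5 was at 4409 and 1046 CPM in L2 and at 1218 and 3848 CPM in C3, with L3 at 10896 and 5956 CPM. L2 was thus higher than C3 in batch 3017 and lower in batch 3097. Rnase9 was at 1674 and 10.7 CPM in L2, at 8.97 and 310 CPM in C3 and at 3145 and 1009 CPM in L3. No direction can be given for either gene.

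The genes Nxpe2, Stra6 and Npy, chosen after their values were seen, passed the test between L2 and C2 and between C2 and C3. Nxpe2 (chr9:48318006-48353454) was at 0.172 and 1.22 CPM in C2, at 42.3 and 41 CPM in L2 and at 23 and 84.7 CPM in C3. L2 differed from C2 by 5.96 log2 units (adjusted p = 0.017, edgeR) and from C3 by -0.21 with an interval of -1.75 to 1.33. Stra6, the receptor for retinol uptake, was at 1.31 and 5.63 CPM in C2, at 28.7 and 34.4 CPM in L2 and at 17.2 and 28.2 CPM in C3. Npy, neuropeptide Y, was at 0.0688 and 0.547 CPM in C2, at 2.2 and 5.84 CPM in L2 and at 6.78 and 13.7 CPM in C3, so both its L2 values lay between the 2 control segments.

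**Figure D4:**
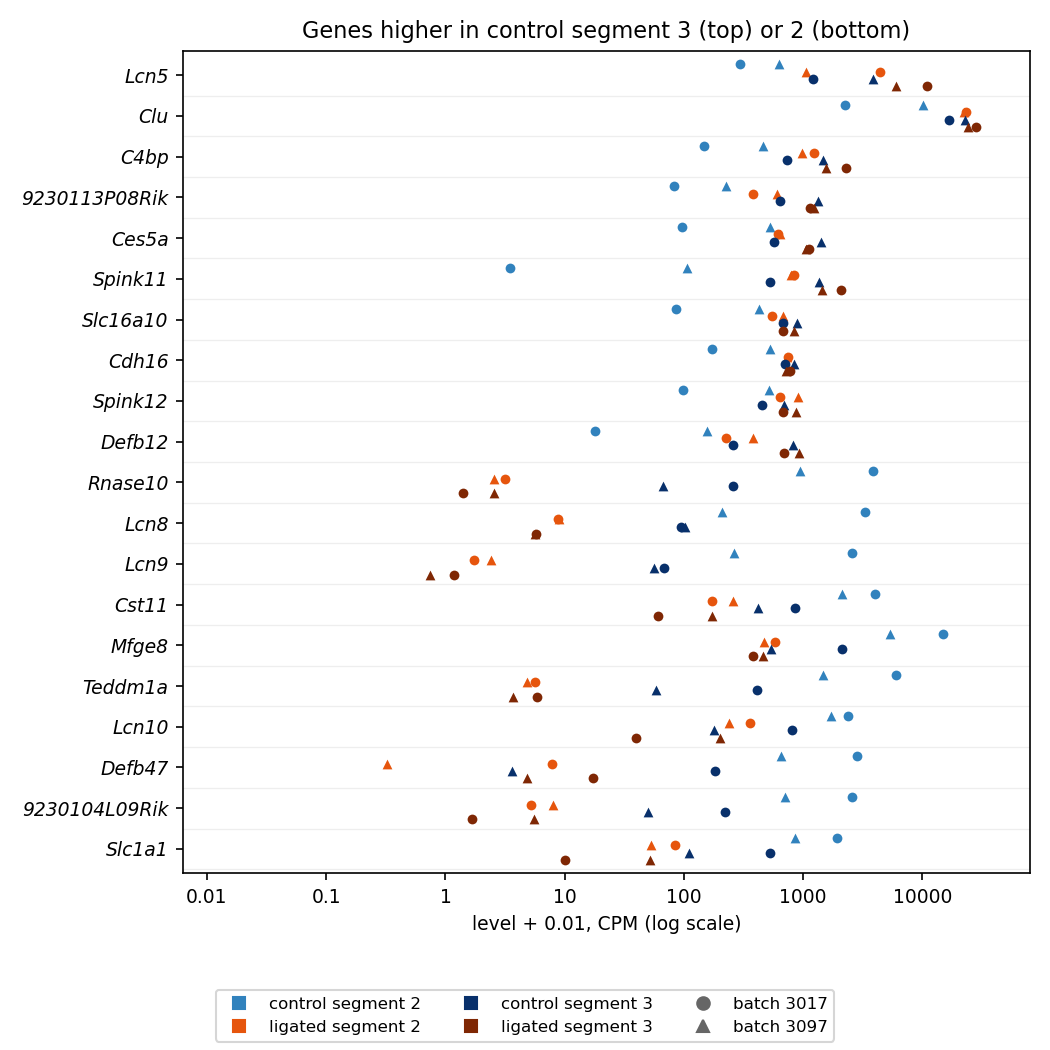
Levels of 20 genes that were higher in control segment 3 (top 10) or in control segment 2 (bottom 10) in both batches, in each library (x axis, CPM plus 0.01 on a log scale), with groups by colour and batches by shape. In the top rows the orange points of L2 lie to the right of those of C2. They lie between the C3 points for C4bp, Ces5a, Spink11 and Cdh16 and below them for Slc16a10 and 9230113P08Rik. For Lcn5 they lie on either side of the C3 points, and for Clu, Spink12 and Defb12 a point lies outside them. In the bottom rows the L2 points lie below C3 for Rnase10, Lcn8, Lcn9 and Teddm1a, with the brown points of L3 beside them.

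Of 31 tested genes of an initial segment list, 2 were called lower in L2 and none higher, against 1.68% called lower among all genes, and 10 were within 2-fold by the interval. The list median was -1.17, and single members ranged from -5.96 to 2.26. Rnase10, a secreted ribonuclease-like protein of the initial segment, was at 3863 and 941 CPM in C2, at 259 and 66.5 CPM in C3 and at 3.13 and 2.56 CPM in L2. L2 differed from C3 by -5.67 ± 0.89 on the log2 scale (adjusted p = 0.042, edgeR). The call was lost whichever of the 4 libraries was left out, with adjusted p between 0.052 and 0.35, though each L2 value lay far below each C3 value. The other call was Tecta, a protein of the tectorial membrane of the ear, with 1 count in L2 and a ratio of C3 to L2 of 79.4 (95% counting interval 13.8 to 3180). Tecta is among the genes under 0.1 CPM in all ligated libraries, whose calls are no evidence of a loss. Its call was lost in 3 of the 4 fits that left out a library.

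Other secreted proteins of the same list had low L2 levels that did not pass the test in the fit of all 12 libraries. Lcn9 was at 67.7 and 56.4 CPM in C3 and at 1.74 and 2.41 CPM in L2 (log2 difference -4.85, adjusted p = 0.089 in edgeR). Lcn8, another secreted lipocalin, was at 94.6 and 102 CPM in C3 and at 8.83 and 8.91 CPM in L2 (adjusted p = 0.21, edgeR). The cystatin Cst8 was at 29 and 26.2 CPM in C3 and at 1.42 and 2.04 CPM in L2 (adjusted p = 0.16, edgeR). For these 3 genes each L2 value lay below each C3 value, and C2 was at 2565 and 262 CPM, at 3318 and 210 CPM and at 1007 and 107 CPM. DESeq2 called all 3, with adjusted p of 5.1e-06, 0.016 and 0.0016. The edgeR fit of only the 4 libraries compared called them too (adjusted p = 0.011, 0.00084 and 0.0051). The edgeR fit without both C2 libraries, added after the data were seen, gave adjusted p of 4.8e-05, 2.1e-06 and 6.4e-05. Scaling by library totals, the other low-count filters and the fit without the batch term called none of them (adjusted p = 0.067 to 0.37, edgeR). Nor did any fit that left out a library of L2 or C3.

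Teddm1a was at 406 and 57.8 CPM in C3 and at 5.57 and 4.82 CPM in L2 (adjusted p = 0.095, edgeR). The transcript 9230104L09Rik was at 220 and 50.3 CPM in C3 and at 5.16 and 7.98 CPM in L2 (adjusted p = 0.15, edgeR). Ovch2, a protease-like protein of the initial segment, was at 84 and 63.7 CPM in C3 and at 27.4 and 25.7 CPM in L2 (adjusted p = 0.085, edgeR). The glutamate transporter Slc1a1 was at 525 and 111 CPM in C3 and at 84.8 and 53.2 CPM in L2. Mfge8, a secreted protein that binds phosphatidylserine, was at 2134 and 537 CPM in C3 and at 575 and 470 CPM in L2. Lcn10 was at 800 and 180 CPM in C3 and at 358 and 239 CPM in L2, so its values overlapped. Cst11 was at 848 and 421 CPM in C3 and at 173 and 260 CPM in L2, and Defb47 at 183 and 3.63 CPM in C3 and at 7.88 and 0.316 CPM in L2. Adam28 was at 24.6 and 39.5 CPM in C3 and at 8.65 and 7.89 CPM in L2. From Teddm1a to Adam28, the fit of only the 4 libraries called Ovch2 and Defb47 alone (adjusted p = 0.011 and 0.031, edgeR). The fit without both C2 libraries called Ovch2 alone (adjusted p = 0.00033, edgeR). DESeq2 called Teddm1a, 9230104L09Rik, Ovch2 and Defb47 (adjusted p = 2.8e-06, 7.2e-04, 2.3e-05 and 0.048) and none of the others.

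Of 25 tested genes of an ERK target list, 1 was called lower and none higher, a share near the 1.68% called lower among all genes, with a median of -0.53. The called gene was Egr2, an immediate early transcription factor, at 40.6 and 38.4 CPM in C3 and at 29.4 and 29.1 CPM in L2 (log2 difference -0.43 ± 0.09, adjusted p = 0.045 in edgeR). That call was lost whichever library was left out. Etv5, a PEA3 transcription factor downstream of ERK, was at 380 and 68.7 CPM in C2, at 31.9 and 7.53 CPM in C3 and at 1.19 and 1.7 CPM in L2 (adjusted p = 0.16, edgeR). DESeq2 called Etv5 (adjusted p = 0.0029). Its relative Etv4 was at 1.25 and 1.61 CPM in C3 and at 0.337 and 0.876 CPM in L2. Dusp6, a phosphatase that ERK induces against itself, was at 14.1 and 6.87 CPM in C3 and at 6.79 and 5.14 CPM in L2.

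Spry2, a feedback inhibitor of receptor tyrosine kinases, was at 13.6 and 12.1 CPM in C3 and at 10.6 and 9.64 CPM in L2, within 2-fold by an interval of -0.63 to -0.06. The receptor Ros1 itself was at 227 and 252 CPM in C3 and at 193 and 171 CPM in L2, also within 2-fold. Srd5a1, the steroid 5-alpha reductase that makes dihydrotestosterone, was at 6.98 and 3.66 CPM in C3 and at 6.14 and 3.94 CPM in L2, against 32.2 and 10.6 CPM in C2.

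The promoters of 4 genes are shown as examples of 3 positions of the L2 values. Those of Rnase10 and Lcn9 lay below the C3 values, those of Nxpe2 between the 2 C3 values, and those of Crisp1 above them. Of these genes only Rnase10 was called between L2 and C3, a call lost whichever library was left out. The promoters are RefSeq windows of build GRCm38.p6, from 250 bases before to 50 bases after the annotated start, 5′ to 3′ on the gene's strand, with capitals marking matches to the ETS core AGGAAG on either strand.
Rnase10 (chr14:51007501-51007800, plus strand): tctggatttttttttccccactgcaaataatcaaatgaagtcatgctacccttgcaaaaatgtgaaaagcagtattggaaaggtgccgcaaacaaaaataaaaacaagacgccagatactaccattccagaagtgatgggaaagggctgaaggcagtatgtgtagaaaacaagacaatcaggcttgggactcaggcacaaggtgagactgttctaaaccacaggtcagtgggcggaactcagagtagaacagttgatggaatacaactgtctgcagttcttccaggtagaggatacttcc
Lcn9 (chr2:25822903-25823202, plus strand): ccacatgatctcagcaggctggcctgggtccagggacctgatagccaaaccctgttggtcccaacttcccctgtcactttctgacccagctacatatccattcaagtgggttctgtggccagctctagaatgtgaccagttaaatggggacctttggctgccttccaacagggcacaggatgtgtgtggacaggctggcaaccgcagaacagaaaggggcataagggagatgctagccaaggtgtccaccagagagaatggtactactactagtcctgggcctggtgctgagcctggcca
Nxpe2 (chr9:48340849-48341148, minus strand): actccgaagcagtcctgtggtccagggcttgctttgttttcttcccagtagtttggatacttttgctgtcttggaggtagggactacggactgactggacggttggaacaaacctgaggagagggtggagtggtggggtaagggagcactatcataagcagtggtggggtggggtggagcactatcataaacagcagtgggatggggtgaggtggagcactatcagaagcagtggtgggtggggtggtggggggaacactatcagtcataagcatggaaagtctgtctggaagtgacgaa
Crisp1 (chr17:40319158-40319457, minus strand): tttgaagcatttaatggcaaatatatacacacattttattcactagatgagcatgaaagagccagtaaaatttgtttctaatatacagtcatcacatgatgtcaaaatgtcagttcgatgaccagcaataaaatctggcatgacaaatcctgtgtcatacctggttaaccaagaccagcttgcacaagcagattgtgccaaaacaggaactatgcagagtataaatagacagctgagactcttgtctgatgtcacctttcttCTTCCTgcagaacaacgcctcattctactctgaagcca
The ETS core is present in 35.4% of 32851 such windows. The Crisp1 window holds 1 match, and these letters do not occur in the windows of Rnase10, Lcn9 and Nxpe2. The single Nxpe2 window listed lies inside the gene span given above, at a RefSeq start downstream of the GENCODE one. A match is a run of letters and not a measured binding site.

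The aldehyde dehydrogenase genes Aldh1a1 and Aldh1a7 were lower than in either control segment. Aldh1a1, which makes retinoic acid from retinal, was at 2111 and 2058 CPM in C2, at 1505 and 1398 CPM in C3 and at 737 and 833 CPM in L2. Its log2 difference from C3 was -0.89 ± 0.12 (adjusted p = 0.0045, edgeR), and the call was lost in 3 of the 4 fits that left out a library. Aldh1a7, its close relative on the same chromosome, was at 1285 and 1463 CPM in C2, at 952 and 507 CPM in C3 and at 160 and 193 CPM in L2, a log2 difference of -2.07 ± 0.33 (adjusted p = 0.029, edgeR). That call was lost in 2 of the 4 fits that left out a library (adjusted p up to 0.28) and in the fit of only the 4 libraries (0.25). No L2 library overlapped a control library for either gene, though Aldh1a7 was named in part for lying below both control segments. Reads of such close copies can be assigned to the wrong one, so their split is uncertain. Aldh1a1 was the only call among 18 tested genes of a retinoid list, whose median was -0.02.

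Adam7, a membrane protein that the caput releases onto sperm, was at 26468 and 20881 CPM in C2, at 17238 and 16039 CPM in C3 and at 9176 and 9983 CPM in L2, which missed the threshold against C3 (log2 difference -0.80 ± 0.18, adjusted p = 0.052 in edgeR). Gpx5 also missed it (-0.50 ± 0.18, adjusted p = 0.21 in edgeR). DESeq2 called both genes, with adjusted p of 1.1e-04 for Adam7 and 0.045 for Gpx5. Both L2 values of each gene lay below all values of C2 and C3. The matrix protease Adamts9 was at 86.9 and 81.3 CPM in C3 and at 48.7 and 50.2 CPM in L2 (-0.77 ± 0.09, adjusted p = 0.0028 in edgeR). The proton exchanger Slc9a7 was at 20.8 and 23.4 CPM in C3 and at 10.6 and 12.6 CPM in L2. The Adamts9 call was lost in 1 of the 4 fits that left out a library.

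A few genes stood above both control segments. Of the 18729 genes outside those set apart, 6 were at least 2-fold above C2 and C3 in each batch and 128 at least 2-fold below. Crisp1, a cysteine-rich secretory protein that coats sperm, was at 9.22 and 12 CPM in C2, at 5.85 and 23.5 CPM in C3, at 157 and 128 CPM in L2 and at 31 and 10.8 CPM in L3. L2 differed from C2 by 3.74 log2 units (adjusted p = 0.045, edgeR) and from C3 by 3.27 ± 0.79, which missed the threshold (adjusted p = 0.12), though DESeq2 called it (adjusted p = 9.4e-04). Both L2 libraries lay above every other library shown except those of control segment 1. Grik3, a glutamate receptor subunit, was at 0.852 and 0.658 CPM in C3 and at 2.85 and 4.33 CPM in L2 (2.21 ± 0.41, adjusted p = 0.027 in edgeR), a call lost whichever library was left out.

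The other 4 were not called against C3 in edgeR's fit of all 12 libraries. Ltf, the neutrophil and epithelial protein lactoferrin, was at 0.199 and 0.368 CPM in C3 and at 3.26 and 15.1 CPM in L2. Beside it, the neutrophil marker list summed to 1.76 and 2.63 CPM in C3 and to 4.97 and 17.6 CPM in L2, with Ltf itself among its 3 tested members and most of that sum. Serpina16 was at 5.48 and 13 CPM in C3 and at 70.8 and 26.6 CPM in L2, and Defb28 at 1.36 and 1.55 CPM in C3 and at 52.1 and 8.76 CPM in L2. The last was the unnamed transcript 4930426D05Rik, at 6.36 and 9.08 CPM in C3 and at 41.2 and 18.8 CPM in L2. DESeq2 called Ltf and Defb28 (adjusted p = 0.012 and 0.028) but not Serpina16 and 4930426D05Rik (0.33 and 0.43).

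**Figure D5:**
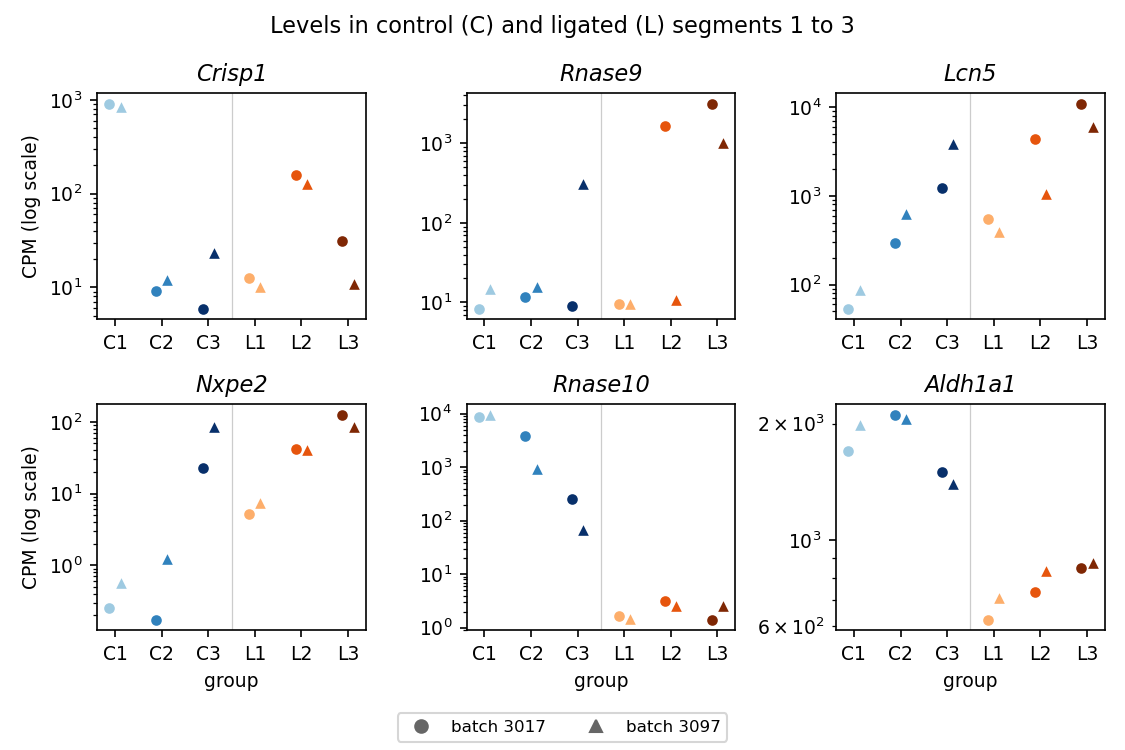
Levels (CPM, log scale) of Crisp1, Rnase9, Lcn5, Nxpe2, Rnase10 and Aldh1a1 in all 12 libraries, by group on the x axis and batch by shape. Crisp1 in L2 lies at 157 and 128 CPM, above C2, C3 and L3, Rnase10 lies at 3.13 and 2.56 CPM in L2 against 259 and 66.5 CPM in C3, and Rnase9 differs by batch.

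The genes called higher differed by less than the losses. Among those at 5 CPM or more, the largest log2 difference was that of Arhgef16, a guanine nucleotide exchange factor, at 16.8 and 10.3 CPM in C3 and at 42.9 and 30.6 CPM in L2 (1.45 ± 0.23, adjusted p = 0.021 in edgeR). Taf15, an RNA-binding protein of the FET family, was at 35.9 and 34.9 CPM in C3 and at 71.6 and 79.3 CPM in L2 (1.09 ± 0.09, adjusted p = 3.0e-04 in edgeR). Apoe, the apolipoprotein of cholesterol transport, was at 1013 and 1262 CPM in C3 and at 1891 and 2473 CPM in L2 (0.94 ± 0.14, adjusted p = 0.0097 in edgeR). All L2 libraries lay above all C3 libraries for these genes, which were named for the size and shared direction of their difference. C2 lay between C3 and L2 for Taf15, at 46.5 and 55.7 CPM, and for Apoe, at 1370 and 1710 CPM. For Arhgef16 C2 was at 34.6 and 21 CPM, so its values overlapped those of L2 (adjusted p = 0.27 for L2 against C2, edgeR).

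Among the others, Gar1, a protein of the H/ACA small nucleolar particle, was at 10.2 and 13.3 CPM in C3 and at 21.5 and 26.4 CPM in L2. Gpatch4, a nucleolar protein, was at 6.81 and 7.68 CPM in C3 and at 13.9 and 15.4 CPM in L2, and Hnrnpa0, an RNA-binding protein, at 125 and 134 CPM in C3 and at 242 and 232 CPM in L2. With a library left out, Arhgef16 and Apoe lost their calls in all 4 cases, Gar1 and Hnrnpa0 in 3 and Gpatch4 in 2. The 4 higher calls that held whichever library was left out were Taf15, the nucleolar methyltransferase Fbl (0.62 ± 0.07), the nucleosome-binding protein Hmgn5 (0.75 ± 0.08) and Gm2415 (1.20 ± 0.13), and the last 3 were named after their values were seen. Fbl alone of these lost its call without the batch term (adjusted p = 0.35, edgeR). C2 was also called higher than C3 for Taf15 and Hmgn5 (adjusted p = 0.028 and 0.019, edgeR), but not for Fbl and Gm2415 (0.19 and 0.12). Hmgn5 was at 86.7 and 91.8 CPM in C2, at 94.2 and 111 CPM in L2 and at 60.4 and 61.1 CPM in C3.

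Of the remaining higher genes the rule named, Wscd2, Tceal5, Sept1, Tceal3, Rasl11a and Tnnt2 differed by 1.02, 1.01, 0.94, 0.82, 0.79 and 0.77 on the log2 scale. Each lost its call in at least 2 of the 4 fits that left out a library. Among these genes only Tceal3 had both C2 values above both L2 values, at 37.8 and 25.6 CPM against 22.4 and 21.9 CPM. One call, Mpped1, rested on 1 library, with 1.99 and 0 CPM in L2 and no count in C3, it was the only 1 of the 259 calls without the same direction in both batches, and DESeq2 did not call it (adjusted p = 0.69).

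Several gene groups held no call against C3. Over all genes 2.10% were called, so lists of this size would hold few calls or none at that share. The caput secretory list (48 tested), beta-defensins (31), lipocalins (11), Kazal and WAP inhibitors (25), cystatins (7) and androgen response genes (18) had medians of 0.07, 0.37, -0.14, 0.00, -0.47 and 0.04. The absence of calls had different weight in each. By the interval, 14 of the 18 androgen response genes were within 2-fold of C3, but only 19 of the 48 caput secretory genes and 2 of the 31 beta-defensins, whose levels differed between the batches. Among all genes 63.2% were within 2-fold by the interval. Housekeeping groups were close: all 30 lysosomal genes and all 26 ribosomal protein genes were within 2-fold, as were 21 of 24 cholesterol synthesis genes, 22 of 24 chaperones of the endoplasmic reticulum and 24 of 31 glutathione genes. Among 281 solute carriers, 176 were within 2-fold, a share near that of all genes, and 2 were called lower, against 1.68% of all genes. They were Slc9a7 and Slc6a21, the latter with no count in L2, at least 9.52-fold lower and among the genes under 0.1 CPM in all ligated libraries. Both calls were lost whichever library was left out.

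Few markers of other cells were called. Against 0.422% called higher among all genes, the smooth muscle list had 2 of 16 members called higher, Tagln (0.40 ± 0.08) and Tpm2 (0.47 ± 0.09), and its sum was 643 and 733 CPM in C3 and 729 and 880 CPM in L2. The basal cell keratin Krt5 was higher by 0.52 ± 0.09, the only call of 13 basal markers, whose sum was 323 and 353 CPM in C3 and 362 and 442 CPM in L2. Tyrobp, a signalling adaptor of myeloid cells, was higher by 0.97 ± 0.20, the only call of 28 macrophage and dendritic markers, whose sum was 257 and 281 CPM in C3 and 335 and 407 CPM in L2.

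The interferon-induced Isg15 was higher by 1.16 ± 0.22, the only call of 35 interferon response genes, whose median was 0.43. Isg15 was at 8.19 and 5.28 CPM in C2, at 5.57 and 4.14 CPM in L2 and at 2.16 and 2.13 CPM in C3. Ly6a differed by 0.55 ± 0.10 and was at 44.5 and 54.4 CPM in C2. It was at 37.6 and 55.2 CPM in L2 and at 28.4 and 34.1 CPM in C3. For Isg15 and Ly6a, C2 was itself called higher than C3 (adjusted p = 0.018 and 0.026, edgeR). Deup1, which builds centrioles in ciliated cells, was lower by a log2 difference of -1.59 ± 0.32, the only call of 21 tested markers of ciliated cells, whose median was -0.70 and of which 7 were within 2-fold. All 7 of these calls had adjusted p between 0.021 and 0.044 in edgeR and were lost whichever library was left out. The lists of clear and narrow cells (20 tested), general epithelium (19), fibroblasts (23) and endothelium (18) held none. Nor did the 13 tested T and NK cell markers, whose median was 0.86, with 2 within 2-fold and sums of 17.5 and 13.3 CPM in C3 and 11.9 and 14 CPM in L2. The part of cell composition in the results was not tested.

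Among the transcripts at least 2-fold below both control segments was Gm42418, a locus that overlaps ribosomal RNA sequence, at 24677 and 7529 CPM in C3, at 32560 and 28176 CPM in C2 and at 1125 and 1495 CPM in L2 (-3.54 ± 0.53, adjusted p = 0.025 in edgeR). Gm24270 and Gm23935, annotated as short RNAs, differed by -3.54 and -3.37, both with adjusted p of 0.049. These 3 calls were each lost in 2 of the 4 fits that left out a library, and the fit of only the 4 libraries gave adjusted p of 0.35 to 0.45 (edgeR). Lars2, a mitochondrial leucyl-tRNA synthetase, was at 2409 and 462 CPM in C3 and at 134 and 142 CPM in L2. Amot, angiomotin, was at 471 and 169 CPM in C3 and at 34.4 and 37.1 CPM in L2. Both missed the threshold in edgeR (adjusted p = 0.065 and 0.058), and DESeq2 called both (adjusted p = 9.2e-06 and 2e-06). The mitochondrial ribosomal RNAs mt-Rnr1 and mt-Rnr2, named after their values were seen, differed by -0.78 ± 0.10 and -1.22 ± 0.16 (adjusted p = 0.0033 and 0.004, edgeR). Both calls were lost in 2 of the 4 fits that left out a library. The levels of Gm42418, Lars2 and Amot, as those of Odf1 and Smcp, were higher in the C3 library of batch 3017 than in that of batch 3097. The part of ribosomal RNA carried through poly(A) selection was not tested.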

How the data were processed

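The deposited files hold counts per gene, 1 table for each batch, made by the authors with Trim Galore 0.6.0, cutadapt, FastQC and STAR 2.7.0e on GRCm38 (mm10), per the submitters' processing notes; no label or header states how strand was handled in counting, so genes that overlap on opposite strands are uncertain. Coordinates and symbols came from GENCODE M21, also of GRCm38. Counts were fitted in edgeR 4.0.16 (R 4.3.3; TMM scaling, filterByExpr with a minimum count of 10, robust quasi-likelihood F test, two-sided) over all 12 libraries with group and batch terms, and p-values were adjusted by Benjamini-Hochberg over the 19213 genes tested. The labels give batches by column, 1 library of each group in each, and the batch term pairs L2 with C3 in this way; the deviations of libraries of a batch correlated at 0.0459 to 0.662 between groups (0.0483 for L2 and C3). DESeq2 1.42.0, other filters and scalings, and fits leaving out a library were alternatives. On simulated counts (18526 genes), 66% of 2-fold and 94% of 4-fold changes between L2 and C3 were recovered, with 10 false calls. All libraries were drawn from the same mean per gene, without batch effects, and the 200 changed genes were above 1 CPM. These shares therefore do not give the power or error of the real comparison. Cross-batch readings used log2 of CPM plus 0.5.

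The comparison, the gene lists and the rule for named genes were chosen with earlier results of these data known. The rule named the 12 largest and 12 smallest fold changes at 5 CPM or more outside the genes set apart, the 6 smallest among those, a list of caput genes, up to 4 calls per list, the most abundant segment genes and genes outside both controls; genes that share a symbol with another ID, and those of no name, are not all described. Intervals for counts and the floor of 3 counts cover counting error only. The labels do not tie replicate numbers to batches. Some results on single genes are not reported here.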

Additional observations from a re-analysis of the deposited data

How the results depend on the processing

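The direction of every named gene that was called, in the main test or under an alternative, was the same under each alternative in which it could be fitted; among the 105 named genes, of which 61 were called, DESeq2 lost 1 call and gained 15, and 18 calls held whichever library was left out. With 2 pools a side the calls rest on few libraries, and low counts limit the genes under 1 CPM.

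For L2 against C3, DESeq2 called 759 genes (605 outside those set apart), and the fit without the replicate block, the batch term, called 236 (128). The fit of only the 4 libraries compared called 238 (152, and 174 at 2-fold or more). Without both C2 libraries, an alternative added after the data were seen, 847 (689) were called. Leaving out a library gave 105 and 256 calls (C3 of batch 3017 and of batch 3097), 79 and 98 (L2, same order). At 2-fold or more these were 93, 186, 75 and 91, and outside those set apart 58, 177, 36 and 50. At 2-fold or more, a filter of 50 counts left 170 and the test against 2-fold (glmTreat) 136. The number within 2-fold by the interval was within 1.5 times its value under each alternative run. L2 against C2 gave 1162 without the replicate block, 149 with only the 4 libraries, 650 and 4066 without the C2 library of batch 3017 or 3097, and 148 and 331 without that of L2. C2 against C3 gave 1587 in DESeq2, 0 in edgeR without the replicate block (2936 genes at an unadjusted p under 0.05), 162 with only the 4 libraries, 57 and 2384 without the C2 library of batch 3017 or 3097, and 78 and 0 without that of C3 (2666 genes at an unadjusted p under 0.05 in the last). The cause of these shifts was not tested.

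The share of segment genes within 2-fold of C3 depended on how far apart the control segments had to be. Chosen at 2-fold, it was 88.9% and 89.5% (higher in C3 and in C2, read in batch 3097) and 68.7% and 59% (read in batch 3017). Chosen at 8-fold, it was 42.9% and 63.8% in batch 3097. With a minimum of 20 CPM it was 11.8% for genes higher in C2 in batch 3017.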
